A study of Mus musculus with 2 samples.

Results

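Open chromatin inside the 3′ untranslated regions (3′ UTRs) of protein-coding genes was described in the limbs of mouse embryos. Of 115658 DNase-seq peaks found in both libraries of the study on chromosomes 1 to 19, 1570 (1.36%) were centred in a 3′ UTR, outside every coding sequence and over 1 kb from every protein-coding start in the GENCODE annotation of mm10. They made up 1.77% of the 88816 shared peaks that lay away from starts, and they fell in 1317 genes, called hosts below. A peak was a window of 150 bp called by the authors in 1 library, and a shared peak was a merged set of peaks that overlapped between the libraries by at least 1 bp. The choice used position and presence in both libraries and set no threshold on peak strength. Presence in both libraries nevertheless favoured stronger peaks. Of 3′ UTR peaks in the lowest signal quartile, 28.4% in replicate 1 and 28.3% in replicate 2 were found in the other library. In the highest quartile the shares were 97.7% and 99.3%.

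Both libraries came from whole limbs of B6NCrl embryos at 11.5 days, with male and female embryos pooled, and the labels call them biological replicates 1 and 2. There was no treatment and no other genotype, so the study holds 1 group and no test between conditions could be made. The labels give neither the share of forelimb and hindlimb nor the number of embryos, and they name 2 sequencing instruments for replicate 2 and none for replicate 1. Limb at this stage is a mixture of mesenchyme, surface ectoderm, muscle precursors, vessels, blood and nerve, and the peaks of these cells cannot be told apart here. Among genes of the limb mesenchyme list, 40 of 40 had a promoter peak (a shared peak at most 1 kb from one of their starts), and so did 21 of 22 neural and 23 of 23 housekeeping genes. The count was 12 of 20 for muscle, 11 of 20 for endothelium and 8 of 23 for blood, beside 69.8% of all genes with a 3′ UTR that met the rule, with the embryonic globin gene Hbb-y, the leukocyte gene Ptprc and the endothelial gene Cdh5 among those without one.

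DNase I cuts DNA where nucleosomes and other proteins leave it exposed, and DNase-seq maps those cuts; a peak marks a place where many cells of the sample had open DNA. A 3′ UTR is the stretch of an mRNA between the stop codon and the poly(A) tail, best known for the sites that microRNAs and RNA-binding proteins read on the transcript. The same DNA can hold enhancers, starts of other transcripts or sites for CTCF, a zinc-finger protein that anchors chromatin loops and blocks contact between enhancers and promoters.

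The sequence word that stood out among the 3′ UTR peaks was that of CTCF, so the sites in the 6 strongest such peaks are shown. Letters in capitals are the match to the CTCF word and letters in lower case are flanking bases, read 5′ to 3′ on the strand of the match, from GRCm38 (mm10).
Slc4a3, chr1:75559726-75559754, minus strand: aatcggatCCGCCAGGTGGCAgccttccc
Skap2, chr6:51858059-51858087, minus strand: ctaagtggCCAGCAGATGGCAgcagcttg
Frmd8, chr19:5850355-5850383, minus strand: agctgtgaCCAGCAGGGGGCAgctgagcc
Ankrd63, chr2:118700310-118700338, plus strand: cagaggtgCCACTAGGGGGCAgcaaggat
Elovl3, chr19:46135439-46135467, plus strand: cccagagaCCACCAGGTGGCGtcgcagca
Cryzl1, chr16:91694874-91694902, plus strand: tcagccgtCCACTAGAGGGCAgccatgca

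The word of REST, the repressor that keeps neuronal genes off outside the nervous system, was rarer but is long and specific. The matches below, in capitals, are shown because each lay within 10 bp of the centre of its peak.
Nppa, chr4:148002047-148002075, plus strand: ataaacTTCAGCACCAAGGACAGacgccg
St6galnac5, chr3:152821378-152821406, minus strand: gcgtccTTCAGCACCATGGACAGatccca
Nek11, chr9:105244205-105244233, plus strand: agtctaTTCAGCACCGTGGACAGctacac
Otulinl, chr15:27655171-27655199, plus strand: cgccttTTCAGCACCACGGACAGgtcccg
Sec14l3, chr11:4076821-4076849, plus strand: gcagatTTCAGCACCCCGGACAGcgccgc

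Per base, 3′ UTRs held peaks at a density between those of coding exons and introns. There were 50.2 shared peaks per Mb of 3′ UTR that met the rule (31.3 Mb in all), 60.5 per Mb of coding exon, 43.6 per Mb of intron, 33.7 per Mb of intergenic DNA and 436 per Mb within 1 kb of starts. Across chromosomes the density in 3′ UTRs ran between 40.2 per Mb on chromosome 10 and 64.7 per Mb on chromosome 11. With 1 pair of libraries no test of these differences was possible, and all intervals given below (95%, Wilson unless named otherwise) cover counting error over regions only.

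Each library was also read on its own. Replicate 1 had 2351 peaks centred in 3′ UTRs and replicate 2 had 2332. The share that was found again in the other library was 68.1% for replicate 1 and 69.9% for replicate 2, against 72.7% and 67.3% of coding exon peaks, 68.5% and 71.9% of intron peaks and 69.2% and 71.1% of intergenic peaks. Whether a 3′ UTR peak was found again went with its strength: in the lowest signal quartile of the library it was 28.4% in replicate 1 and 28.3% in replicate 2, and in the highest quartile it was 97.7% and 99.3%. Intron peaks of the lowest quartile were found again in 34.8% and 37.4%. Peaks that overlapped neither a peak nor a hotspot (a broader enriched region called by the authors) of the other library numbered 591 in replicate 1 and 622 in replicate 2.

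The strongest of these peaks, which lacked both a peak and a hotspot in the other library, included genes of limb and axial patterning. In replicate 1 the 3 strongest lay in Twist2, a transcription factor of mesenchyme, in Copg2, a coat protein of transport vesicles, and in Hoxa9, a homeobox gene of the body axis, each with a signal of 62. In replicate 2 they lay in Hmx2, a homeobox gene of the inner ear, with a signal of 61, in Cdx2, a homeobox gene of the posterior embryo, with 58, and in Twist1, a mesenchymal transcription factor needed for limb outgrowth, with 55. Nothing replicates these 6 peaks, which stood between the 69.6 and 75.6 percentile of their own library. The Hoxa9 and Twist1 peaks lay in hotspots of 99 and 116 bp. The scores of these hotspots (−log10 q values), 1.69 and 1.766, were near the lowest hotspot score of either library, 1.302.

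The signal is the value the authors attached to each peak, on a scale whose normalization the sources used here do not state. For shared 3′ UTR peaks it ran between 16 and 132 in replicate 1, with a median of 56, and between 13 and 127 in replicate 2, with a median of 46. Ranked within its library, the median 3′ UTR peak stood at the 63.2 percentile in replicate 1 and the 60.6 percentile in replicate 2. The medians were 60.7 and 64.2 for coding exon peaks, 58.0 and 56.6 for intron peaks, 59.4 and 56.6 for intergenic peaks, and 81.3 and 85.1 for promoter peaks. The 3′ UTR peaks were thus above coding exon peaks in replicate 1 and below them in replicate 2, and a few percentile points above intron and intergenic peaks in both libraries.

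**Figure D1:**
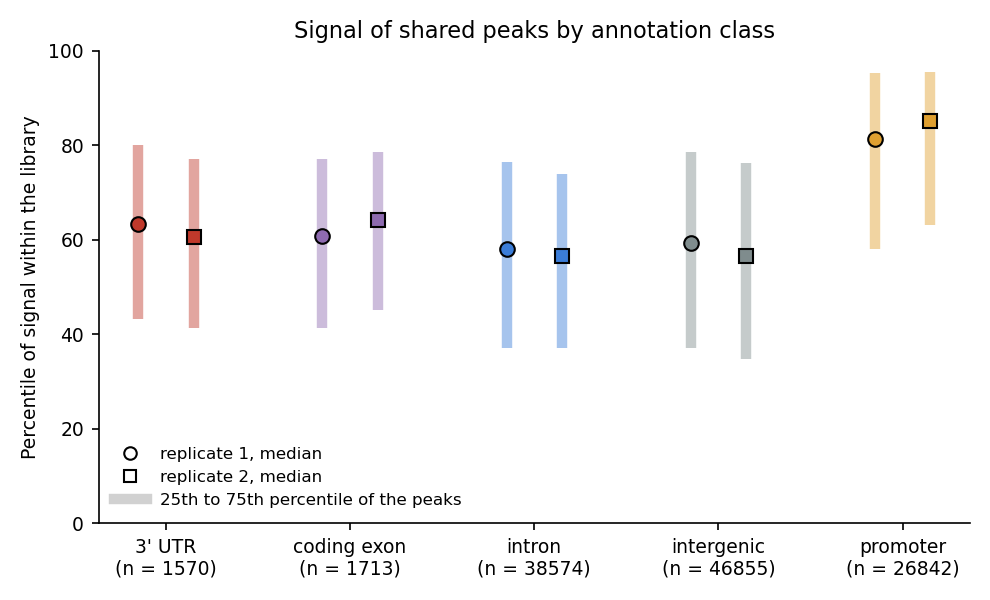
Percentile of the deposited signal within each library (vertical axis) for shared peaks of 5 annotation classes (horizontal axis). Markers are medians of replicate 1 (circles) and replicate 2 (squares), and bars span the 25th to 75th percentile of the peaks. The 3′ UTR medians of 63.2 and 60.6 sit a few points above those of introns and well below the promoter medians of 81.3 and 85.1.

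Within the 1570 peaks the libraries ranked signals alike, with a Spearman rho of 0.887 across peaks, given as a description since peaks of 1 library share its depth and preparation. The strongest peaks were few. Of the 1570, 70 (4.46%, interval 3.54 to 5.6) exceeded the 90th percentile in both libraries, against 5.78% of coding exon, 3.48% of intron, 4.81% of intergenic and 36.7% of promoter peaks, and 11.8% of all shared peaks. The hotspots around 3′ UTR peaks had a median width of 303 bp in replicate 1 and 324 bp in replicate 2. The hotspot score, a −log10 q value, was at its ceiling of 100 in both libraries for 693 of the peaks (44.1%), against 48.6% of all shared peaks, so it was not used to rank them. By class the share at the ceiling was 41.9% of coding exon, 38.5% of intron, 42.1% of intergenic and 75.2% of promoter peaks.

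**Figure D2:**
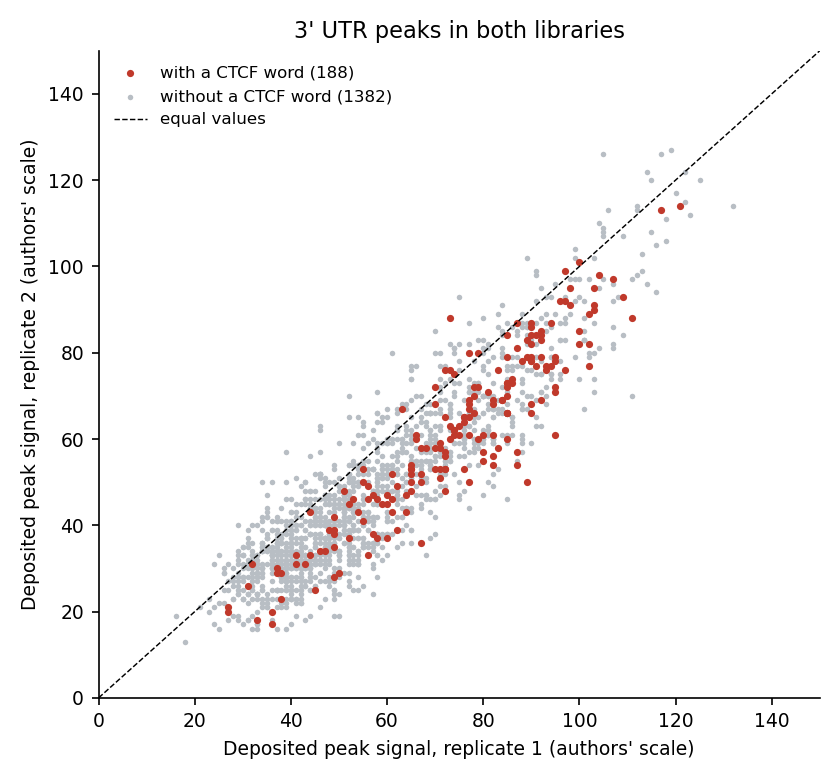
Deposited signal of each of the 1570 shared 3′ UTR peaks in replicate 1 (horizontal axis) and replicate 2 (vertical axis), both on the authors' scale, with the 188 peaks that hold a CTCF word in red and a dashed line of equal values. Most points lie below the line (medians of 56 in replicate 1 and 46 in replicate 2), and the red points are mostly in the upper part of the cloud.

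The 10 strongest 3′ UTR peaks, ranked by the lower of their percentiles in the 2 libraries, lay in genes of unlike function. St3gal2, a sialyltransferase of the Golgi, had a peak at chr8:110970356-110970525, 168 bases after the stop codon, with a signal of 122 in replicate 1 and 122 in replicate 2. Its nearest protein-coding start, that of Ddx19a, was 27359 bp away. Btbd19 had signals of 119 and 127 at chr4:117120536-117120705, and the start of a noncoding transcript of the same gene lay 644 bp from it. H13, a signal peptide peptidase, had 125 and 120 at chr2:152707736-152707925, a window of 72.7% GC.

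Sox12, a SoxC transcription factor of the embryonic mesenchyme and nervous system, had signals of 117 in replicate 1 and 126 in replicate 2 at chr2:152396316-152396485. That peak was only 1645 bp from the start of Sox12 itself and lay in a hotspot of 3720 bp in replicate 1 and 1112 bp in replicate 2. Unc13a, which primes synaptic vesicles for release, had 120 and 117 at chr8:71629316-71629485, 24 bases after its stop codon. H1fx, a linker histone, had 115 and 120 at chr6:87980476-87980645, 1076 bp from its own start, close to the limit of the rule. Each of these peaks was above the 96th percentile of both libraries.

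The remaining 4 of the 10 were in Rax, a homeobox gene of the eye field, with 122 and 115; in nonagouti (symbol a), a secreted regulator of coat pigment, with 114 and 122; in Hist1h1d, a linker histone, with 132 and 114; and in Slc4a3, an anion exchanger, with 121 and 114. Slc4a3, at chr1:75559596-75559765, was the only one of the 10 with a CTCF word in the central 150 bp. None of the 10 hosts was on the limb lists.

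By annotation, 1528 of the 1570 peaks (97.3%) were in the 3′ UTR of a transcript typed as protein coding and 42 only in that of another type, such as a transcript marked for nonsense-mediated decay. In 1539 peaks (98.0%) the centre was in the last exon. For 229 peaks (14.6%) another transcript of the host had an intron at that place, and 15 peaks lay in 3′ UTRs of genes on both strands.

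The host's own start was the nearest protein-coding start for 920 peaks (58.6%), and the start of another gene was nearest for 650 (41.4%, interval 39.0 to 43.9). The distance to the nearest start had a median of 9901 bp, with 138 peaks within 2000 bp, 496 within 5000 bp, 791 within 10000 bp and 200 beyond 50000 bp. Peaks nearest to another gene had median signals of 57.5 in replicate 1 and 47 in replicate 2, and those nearest to the host 55 and 46. Just inside the limit of the rule, up to 1500 bp from a start, 67 peaks had median signals of 51 and 44. Just outside it, between 500 and 1000 bp, 89 peaks in 3′ UTRs had 59 and 49.

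Some peaks stood near starts that the rule did not consider. The start of a noncoding gene was within 1 kb of 78 peaks, on the opposite strand from the host in 58 of them, and 33 of those genes were typed antisense. With the 74 peaks near a noncoding transcript of a protein-coding gene, 147 peaks (9.36%) were near such a start. Their median signals were 58 in replicate 1 and 48 in replicate 2, against 56 and 46 for the 1423 others. In the top range, 12 of the 147 (8.16%, interval 4.73 to 13.7) and 58 of the 1423 (4.08%, interval 3.17 to 5.23) exceeded the 90th percentile in both libraries, and these intervals overlap.

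For 8 peaks the noncoding gene was annotated as a microRNA. The strongest was in Srebf1, a transcription factor of lipid synthesis, at chr11:60199776-60199945, 756 bp from the start of Mir6921 on the same strand, with a signal of 100 in replicate 1 and 82 in replicate 2. Tacc1, a protein of the centrosome, had 2 such peaks, 278 and 32 bp from the start of Mir8108, with signals of 44 and 44 at the farther peak and 42 and 30 at the nearer peak.

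Along the 3′ UTR the peaks were spread over its whole length. The median peak was 920 spliced bases after the stop codon and 959 before the transcript end, in a 3′ UTR of 2304 bases, at 47.8% of its length. Per Mb of 3′ UTR that met the rule, the density was 76.9 (interval 64.3 to 91.1, exact Poisson) in the 100 bases after the stop codon. It was 51.3 (42.7 to 61.0) between 100 and 250 bases, 65.7 (57.6 to 74.6) between 250 and 500 bases, 49.2 (44.1 to 54.6) between 1000 and 2000 bases and 36.0 (28.4 to 44.9) between 4000 and 8000 bases.

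Counted from the other side, the last 100 bases before the transcript end held 30.9 peaks per Mb (23.4 to 40.1), and the next stretch, 100 to 250 bases before the end, held 61.4 (52.1 to 71.9). In the last 10% of the 3′ UTR length there were 35.2 per Mb (28.3 to 43.4), the lowest of 10 such bins. The others ran between 41.1 (33.5 to 49.8), at 70 to 80% of the length, and 63.1 (53.6 to 73.7), at 80 to 90%, so the interval of the last bin overlaps those of several others. The poly(A) signal AATAAA was in the central 150 bp of 192 peaks (12.2%) and in 16.8% of windows 500 bp to either side of them. Intron and intergenic peaks held it in similar shares, 13.4% and 13.8%, and coding exon peaks in 3.62%. Distances of single peaks use the longest 3′ UTR that holds the peak, and an mRNA may end earlier. Densities use, for each gene, the longest 3′ UTR of its protein-coding transcripts, so they do not count every peak. Within 100 bases of the stop codon they count 132 peaks, against 145 by the distances of single peaks.

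**Figure D3:**
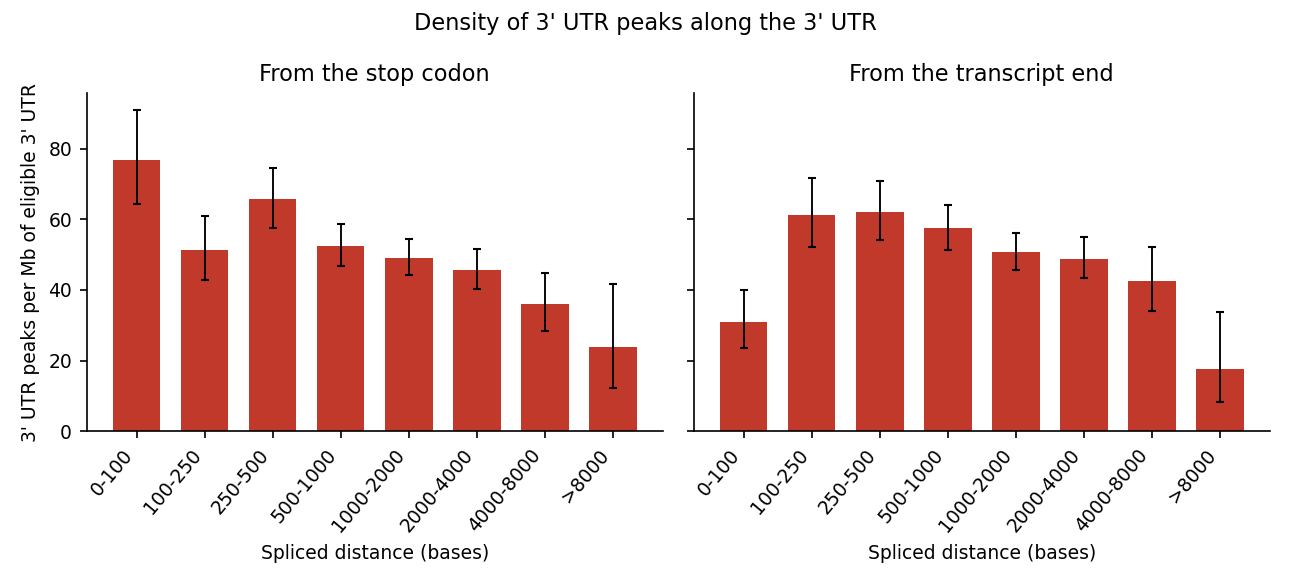
Density of 3′ UTR peaks per Mb of 3′ UTR that met the rule (vertical axis, bars from 0) by spliced distance from the stop codon (left panel) and from the transcript end (right panel); error bars are exact Poisson 95% intervals over peaks. Each gene was represented by the longest 3′ UTR of its protein-coding transcripts. The density was 76.9 per Mb next to the stop codon and 30.9 per Mb in the last 100 bases of the transcript, where the neighbouring bin held 61.4.

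By composition the 3′ UTR peaks resembled intron peaks more than coding peaks. Their central 150 bp had a median GC content of 52%, against 60% in coding exon, 50% in intron, 49.3% in intergenic and 62.7% in promoter peaks. The ratio of observed to expected CpG, which is high in CpG islands, had a median of 0.282, against 0.587 in coding exon, 0.238 in intron and 0.729 in promoter peaks. Masked repeats covered over 50% of the window in 46 peaks (2.93%), against 3.96% of intron and 0.292% of coding exon peaks.

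A CpG-rich subset of 226 peaks (14.4%), with a ratio above 0.6, differed from the other 1344 in place and sequence. Its median distance was 422 bases after the stop codon and 5028 bp from the nearest start, against 968 bases and 10700 bp in the rest. Its median percentiles were 66.6 in replicate 1 and 68.5 in replicate 2, against 63.2 and 59.3 in the rest, so the gap was larger in replicate 2. Above the 90th percentile of both libraries were 25 of the 226 (11.1%, interval 7.61 to 15.8) and 45 of the 1344 (3.35%, interval 2.51 to 4.45). The CTCF word was in 9 of the 226 (3.98%, interval 2.11 to 7.39) and in 179 of the 1344 (13.3%, interval 11.6 to 15.2).

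Among 13 words searched on both strands of the central 150 bp, CTCF had the widest gap, in percentage points, between the peaks and the DNA beside them. It was present in 188 of the 1570 peaks (12%, interval 10.5 to 13.7), against 9.63% of coding exon, 7.25% of intron, 7.69% of intergenic and 2% of promoter peaks, and 7.6% of all shared peaks away from starts. Windows 500 bp to either side of the 3′ UTR peaks held it in 7 of 3140 (0.223%). The match lay within 25 bp of the peak centre in 155 of the 188 (82.4%), at a median of 12 bp, and no peak had more than 1. The strand of the match was that of the host in 87 of the 188 (46.3%, interval 39.3 to 53.4). No test of the difference between classes was possible with 1 pair of libraries, and the interval of the 3′ UTR peaks overlaps that of the coding exon peaks (8.32 to 11.1).

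The peaks with a CTCF word were among the stronger ones. Their signals ran between 27 and 121 in replicate 1, with a median of 76, and between 17 and 114 in replicate 2, with a median of 61. In the 1382 peaks without the word the medians were 54 and 44. By quartiles of signal, low to high, the word was in 4%, 5.08%, 11.7% and 23.5% of 3′ UTR peaks, against 2.22%, 3.49%, 8.02% and 15.9% of intron peaks. In coding exon peaks it was in 4.76%, 6.02%, 6.6% and 19.5%, above 3′ UTR peaks in quartiles 1 and 2. The intervals of 3′ UTR peaks overlap those of coding exon peaks in every quartile, and those of intron peaks in quartiles 1 and 2. By GC content, in bins up to 45%, 45 to 50%, 50 to 55%, 55 to 60% and above, the share was 8.45%, 12.3%, 13%, 14.5% and 10.9% in 3′ UTR peaks, against 9.09%, 12.4%, 13.4%, 14.1% and 6.69% in coding exon and 5.92%, 6.65%, 7.81%, 9.87% and 6.57% in intron peaks. The value in 3′ UTR peaks was above that in intron peaks in each bin, with intervals that overlap in the lowest bin (5.74 to 12.3 against 5.47 to 6.41).

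**Figure D4:**
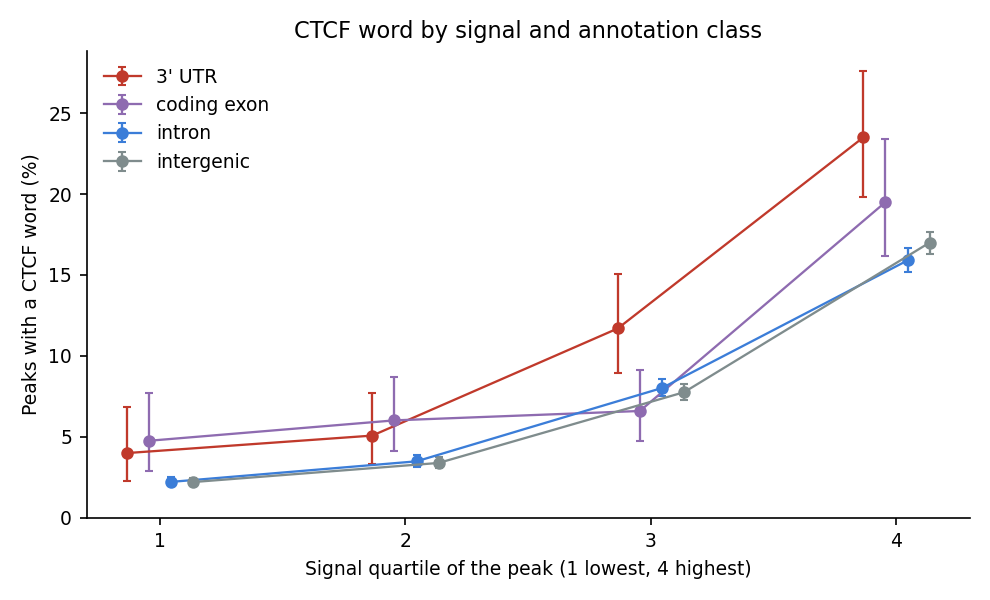
Share of peaks with a CTCF word in the central 150 bp (vertical axis, percent) by quartile of signal (horizontal axis, lowest to highest) for 3′ UTR, coding exon, intron and intergenic peaks; error bars are Wilson 95% intervals over peaks. The share climbs in all 4 classes and reaches 23.5% in the strongest 3′ UTR peaks, with 19.5% in coding exon, 15.9% in intron and 17.0% in intergenic peaks. The intervals of 3′ UTR and coding exon peaks overlap in every quartile.

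The 6 strongest 3′ UTR peaks with a CTCF word are those whose sites are printed above. After Slc4a3, Skap2, an adaptor of immune cell signalling, had signals of 117 in replicate 1 and 113 in replicate 2 at chr6:51857936-51858085. Frmd8, a FERM-domain protein of the cell membrane, had 104 and 98 at chr19:5850256-5850425. Ankrd63 had 100 and 101 at chr2:118700276-118700445. In Slc4a3 and Skap2 the match lay 59 and 62 bp from the centre, at the edge of the searched window, unlike most sites.

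Elovl3, an elongase of very long fatty acids, had signals of 107 in replicate 1 and 97 in replicate 2 at chr19:46135396-46135565. Cryzl1, a quinone reductase-like protein, had 103 and 95 at chr16:91694836-91694985. Among limb genes the word was in the peaks of Fgfr1, a receptor of the growth factors made by the apical ridge (signals of 83 in replicate 1 and 76 in replicate 2), and of Bmpr1b, a receptor needed for digit cartilage (67 and 52). Both genes are on the list of patterning signals.

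The REST word was in 6 peaks (0.382%, interval 0.175 to 0.831) and in 0 of 3140 flanking windows. That interval includes the shares of intron peaks (0.244%) and intergenic peaks (0.23%). It overlaps the interval of coding exon peaks (0.0596 to 0.514). Nppa, the precursor of atrial natriuretic peptide, whose REST element in the 3′ UTR is known from heart muscle, had signals of 53 in replicate 1 and 44 in replicate 2. St6galnac5, a sialyltransferase of brain gangliosides, had 81 and 81, with the match 1 bp from the centre. Nek11, a kinase of the DNA damage checkpoint, had 91 and 63.

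Otulinl had signals of 83 in replicate 1 and 58 in replicate 2, Sec14l3, a lipid-binding protein, had 80 and 60, and Pou4f3, a transcription factor of hair cells whose site is named only, had 88 and 86. Of the 6, only Nppa was below the 73rd percentile, at 59.4 in replicate 1 and 58.0 in replicate 2. The GLI word GACCACCCA, bound by the effectors of hedgehog signalling in the limb bud, was in 6 peaks (0.382%, interval 0.175 to 0.831). That interval includes the shares of intron peaks (0.228%) and intergenic peaks (0.297%), and 4 of 3140 flanking windows (0.127%) held the word. The 6 peaks with the GLI word lay in Cd3d, Cyp3a13, Gm12689, Lzts3, Mgll and Nrsn2, none of them on the limb lists.

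Several other words had a smaller share among 3′ UTR peaks than among intron peaks, and a larger share than among coding exon peaks. The homeodomain word TAATTA was in 3.25% of 3′ UTR peaks and 5.51% of intron peaks, the TTTATNG word of the posterior Hox proteins in 8.92% and 10.9%, the TEAD word GGAATG in 9.43% and 11.4%, the GATA word AGATAA in 2.68% and 3.79%, and the AP-1 words TGACTCA or TGAGTCA in 1.91% and 2.92%. Coding exon peaks held them, in the same order, in 0.817%, 2.51%, 6.83%, 1.46% and 0.759%. In the windows that flank 3′ UTR peaks these words were in 3.57%, 6.75%, 7.8%, 7.26% and 2.26%, so the shares of the homeodomain, GATA-factor and AP-1 words were not higher in the peaks than beside them. The E-box CAGCTG, bound by basic helix-loop-helix factors, was in 15.9% of 3′ UTR peaks (interval 14.1 to 17.8) and 16.8% of intron peaks, and in 9.01% of the flanking windows. The GC box GGGCGG was in 10.6% of 3′ UTR peaks and 6.84% of intron peaks, and the ETS word CCGGAAG in 1.66% and 1.12%. Coding exon peaks held them in 16.7% and 3.27%. For the ETS word the intervals of 3′ UTR peaks (1.13 to 2.42) and intron peaks (1.02 to 1.23) overlap. The NFI word was in 0 of 1570 peaks, which allows a share of up to 0.244%. TTTATNG can overlap AATAAA, whose reverse complement is TTTATT. A match is a string in the genome, not a bound site.

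Hosts were 6.7% of the 19649 genes with a 3′ UTR that met the rule, and 1124 of the 1317 had a single peak, 151 had 2, 30 had 3, 8 had 4, 2 had 5 and 2 had 6. Longer 3′ UTRs were more often hosts: 1.19% of genes with under 500 bases of such 3′ UTR, 4.7% with 500 to 1000, 6.95% with 1000 to 2000, 10.9% with 2000 to 4000, 18.8% with 4000 to 8000 and 26.1% over 8000. Per Mb of such 3′ UTR, in the same order, there were 52.12, 68.03, 56.99, 46.85, 45.15 and 31.77 peaks. Longer 3′ UTRs were thus not denser in peaks. Median length was 2388 bases in hosts and 1053 in all such genes. A shared peak near a start was present for 1133 of the 1317 hosts (86.0%, interval 84.1 to 87.8) and for 68.6% of the genes without a 3′ UTR peak. Over all genes it was 69.8%. By length of 3′ UTR, short to long in the same 6 bins, it was 65.2%, 78%, 84.8%, 87.9%, 92.8% and 96.2% of hosts, against 53.3%, 69.7%, 76.2%, 80.8%, 84.5% and 80.8% of all genes.

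Genes with most 3′ UTR peaks included several developmental transcription factors. Sox11, a SoxC factor of embryonic mesenchyme and neurons, held 6 peaks along its 6960-base 3′ UTR, at 32, 412, 1642, 2352, 2962 and 4072 bases after the stop codon. In that order, replicate 1 gave signals of 74, 94, 65, 59, 64 and 39, and replicate 2 gave 71, 79, 74, 52, 44 and 30. The strongest lay in the first 500 bases in both libraries and the weakest was the farthest. All 6 lay 1383 to 5423 bp from the start of Sox11, against a median of 9901 bp from the nearest start over all 3′ UTR peaks. Il6ra, the receptor for interleukin 6, also held 6 peaks, with signals of 31 to 48 in replicate 1 and 22 to 52 in replicate 2. Those of Il6ra lay 36451 to 39341 bp from the nearest protein-coding start.

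None of the peaks of Il6ra stood above the 67.5 percentile of a library, so many peaks did not mean strong peaks. Mical2, an enzyme that oxidizes actin, held 5, and the peak 20 bases after the stop codon of the transcript used was strongest, with 102 in replicate 1 and 97 in replicate 2. The peaks of Mical2, between 112351656 and 112354905 on chromosome 7, lay 2347 to 5437 bp from 1 of its starts. They lay inside the gene, which runs on the plus strand to 112413106. Foxc1, a forkhead factor of mesoderm and skeleton, held 5, with signals of 54, 83, 53, 52 and 52 in replicate 1 and 37, 76, 39, 48 and 44 in replicate 2. In both libraries the second peak of Foxc1, 1874 bases after the stop codon, stood above its neighbours. The peaks of Foxc1 lay 3298 to 5338 bp from its start.

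With 4 peaks each followed Dpy19l3, a mannosyltransferase, Lmln, a metalloprotease, Six6, a homeobox gene of the eye, Sp9, a zinc-finger factor of the apical ridge, and Sox4, also a SoxC gene. Sox4 had signals of 72, 80, 63 and 71 in replicate 1 and 69, 88, 57 and 56 in replicate 2, all above the 70th percentile. Sp9 had 59, 33, 35 and 52 in replicate 1 and 65, 29, 47 and 65 in replicate 2, with the peaks next to the stop codon and next to the transcript end the strongest. Except for Dpy19l3, in which 1 of 4 did, no peak of these 9 genes held a CTCF word. The nearest protein-coding start was 2322 to 3932 bp away in Sox4, 2776 to 5416 bp in Sp9 and 1217 to 3737 bp in Six6. It was 39060 to 41070 bp away in Dpy19l3 and 57820 to 61130 bp in Lmln.

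**Figure D5:**
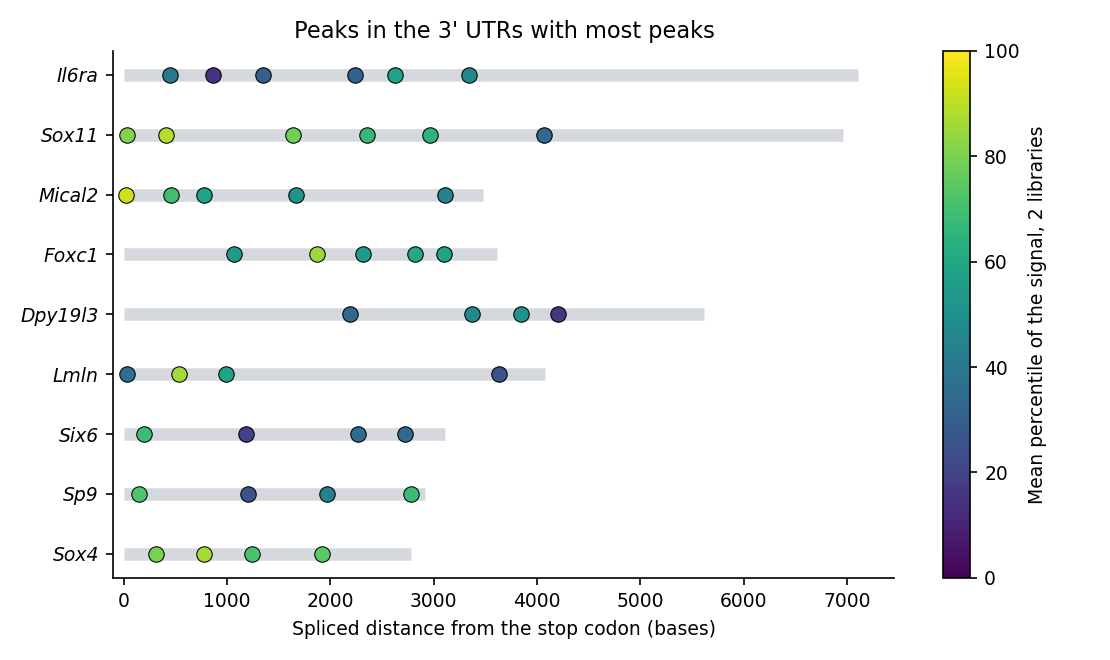
Peaks along the 3′ UTRs of 9 of the genes with most 3′ UTR peaks (rows), by spliced distance from the stop codon in bases (horizontal axis); grey bars are the annotated 3′ UTRs and the colour of a point is the mean of its signal percentiles in the 2 libraries. Peaks of Sox11 and Sox4 are mostly bright, those of Il6ra and Dpy19l3 darker, and Sox11 has 6 peaks in 6960 bases.

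These genes led to counts by family, which were chosen after the values had been seen and are a description only. Among Sox genes 8 of 18 held 3′ UTR peaks (44.4%, interval 24.6 to 66.3), 19 in all, and among Fox genes 9 of 40 (22.5%, interval 12.3 to 37.5). Among Hox genes 1 of 39 did (2.56%), among zinc-finger genes named Zfp 10 of 353 (2.83%), and among olfactory receptors 7 of 1005 (0.697%), beside 6.7% of all genes. Peaks per Mb of 3′ UTR were 478 in Sox, 204 in Fox, 26.4 in Hox and 4.67 in olfactory receptor genes, beside 50.2 in all 3′ UTRs that met the rule. They were 122 in keratin (Krt) and 63.3 in solute carrier (Slc) genes, of which 2 of 48 and 32 of 316 were hosts. The Hox value rests on 1 peak in 37.86 kb and the keratin value on 3 peaks in 24.61 kb, so both are uncertain.

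Among lists of genes by role, the signals that pattern the limb held 3′ UTR peaks in 14 of 50 (28%, interval 17.5 to 41.7), beside 6.7% of all genes. Fgfr1 was strongest, at chr8:25575176-25575345, with signals of 83 in replicate 1 and 76 in replicate 2. Lrp6, a co-receptor for Wnt, had 76 and 59, 17 bases after its stop codon. Bmpr1b came next, and the other hosts were Cyp26b1 and Aldh1a2, which degrade and make retinoic acid, Rarg, its receptor, Gas1, a hedgehog co-receptor, Fzd7 and Fzd1, Wnt receptors, Wnt3, Notch1, Fgf10 and Fgf4, growth factors, and Dusp6, a phosphatase that FGF induces.

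Of the transcription factors of limb mesenchyme, 8 of 40 (20%, interval 10.5 to 34.8) were hosts, beside 6.7% of all genes. Meis1, a marker of the proximal limb, held 2 peaks, with signals of 101 and 74 in replicate 1 and 67 and 73 in replicate 2, so the libraries differed in which was stronger. They lay 135033 and 133523 bp from the start of Meis1, which was the nearest start to either. Pitx1, which specifies the hindlimb, had 60 and 60 at chr13:55825316-55825485. The Pitx1 peak lay in hotspots of 237 and 144 bp with scores of 2.292 and 1.67, beside a lowest score of 1.302 in either library. The Meis1 peak with signals of 74 and 73 had hotspot scores of 1.887 in replicate 1 and 5 in replicate 2. Further hosts were Hand1, Tbx2, Msx1, Prrx1 and Emx2.

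Among 23 cartilage and bone genes 3 (13%, interval 4.54 to 32.1) were hosts, an interval that includes 6.7%. Sox9, the master factor of cartilage, held 2 peaks, at 1113 and 273 bases after the stop codon, with signals of 73 and 47 in replicate 1 and 55 and 33 in replicate 2. Sp7, a factor of bone-forming cells, had 61 and 48, and Sox5, a partner of Sox9, 44 and 40. The farther peak of Sox9 was the stronger in both libraries.

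Among 20 muscle genes 5 (25%, interval 11.2 to 46.9) were hosts, beside 6.7% of all genes, among them Chrna1, Eya4, Myog and Myf6. Chrna1, a subunit of the muscle acetylcholine receptor, had 86 in replicate 1 and 63 in replicate 2, and Myog, which drives muscle differentiation, 40 and 40. The Myog peak had low hotspot scores, 1.874 in replicate 1 and 2.278 in replicate 2. Chrna1, Myog and Myf6 had no promoter peak, unlike most hosts. Among 39 Hox genes only Hoxa5 was a host (2.56%, interval 0.454 to 13.2, which includes 6.7%), with 53 and 39, 32 bases after its stop codon. The Hoxa5 peak lay in hotspots of 66 bp in replicate 1 and 95 bp in replicate 2. Their scores of 1.654 and 1.597 were near the lowest hotspot score of either library, 1.302.

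In the remaining lists the share of hosts had intervals that include the 6.7% of all genes. Of 24 genes of ectoderm and apical ridge 2 (8.33%) were hosts, Tfap2b, a factor of ectoderm and neural crest, with 90 in replicate 1 and 70 in replicate 2, and Sp8, which maintains the ridge, with 44 and 28. The Sp8 peak lay in hotspots of 55 and 88 bp with scores of 1.503 and 1.52, near the lowest score of 1.302. The Tfap2b peak lay in hotspots of 214 and 124 bp with scores of 2.955 and 1.749. Of 22 neural genes 3 (13.6%) were hosts, among them Sox1 with 3 peaks and Nkx2-2, with signals of 40 and 36. Of 20 endothelial genes only Eng, a co-receptor for TGF-beta, was a host, with 32 and 40, and of 22 blood genes only Ank1, which anchors the red cell membrane, with 97 and 76 at the stronger of 2 peaks. That peak lay 3508 bp from the start of Nkx6-3, the nearest, and 176 bp from the start of the noncoding gene Gm15816. Of 21 housekeeping genes none was a host (interval 0 to 15.5%, which includes 6.7%). Tfap2b and Eng, like the muscle genes above, were hosts without a promoter peak.

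The widest hotspots with a 3′ UTR peak, ranked by the larger of their 2 widths, were each wide in 1 library and mostly narrow in the other. Such a ranking favours hotspots that are wide in 1 library only, so no conclusion on the agreement of widths is drawn. Over all 3′ UTR peaks the median widths were 303 bp in replicate 1 and 324 bp in replicate 2. The hotspot over Evx2, a neighbour of the Hoxd cluster that is active in digits, spanned 484 bp in replicate 1 and 8648 bp in replicate 2, while its peak had signals of 29 and 32. Foxd1, a forkhead factor, had 514 and 7308 bp, Six2, a homeobox gene of mesenchyme and kidney, 219 and 5651 bp, and Sox21 1616 and 5448 bp. Mex3b, an RNA-binding protein, went the other way, with 6090 bp in replicate 1 and 201 bp in replicate 2. The peak of Evx2, under the widest of these hotspots, was at the 11.3 percentile in replicate 1 and the 37.0 percentile in replicate 2.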

How the data were processed

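The deposited files hold, per library, peaks of 150 bp with a signal score and hotspots with a −log10 q value made by the authors, on mm10, per the labels. Which aligner and caller were used, and how the score was scaled, is not given in the sources used here. No read counts were used here, so depth is unknown and no interval on a signal could be given. Replicates were not pooled by the authors before calling.

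Peaks of both libraries that overlapped by at least 1 bp were merged on chromosomes 1 to 19, and each merged peak took the highest signal of its peaks in each library. Its centre was placed against GENCODE mouse release 21, with starts taken from protein-coding transcripts, in the order start window (1000 bp), coding exon, 3′ UTR, 5′ UTR, intron, intergenic. Signals were ranked within a library. Words, GC content and repeats were read from the central 150 bp in GRCm38. Intervals are Wilson at 95%. The members and the gene lists were chosen with earlier results of these data known. Named were the 10 strongest peaks, the 10 genes with most peaks, up to 3 genes a list, the 6 strongest peaks with a CTCF word, 3 private peaks a library and the 5 widest hotspots, with some of these genes not reported here; genes with REST, GLI or microRNA neighbours were named after their values were seen. With 2 libraries of 1 group no significance test was made. The functions were tested on simulated data. Python 3.11.15, NumPy 2.4.6, pandas 2.3.3, SciPy 1.17.1 and Matplotlib 3.10.9 were used. Alternatives varied the overlap, the signal, the distance from starts, the transcripts and the libraries.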

Additional observations from a re-analysis of the deposited data

How the results depend on the processing

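Each value was recomputed under the alternatives, 70 values in all, of which 24 moved by less than the spread between the libraries read singly (or, for the number of peaks, stayed within 1.5 times) and 46 moved by more; no cause was tested. Keeping only peaks above the median signal of their library left 924 of the 1570 3′ UTR peaks, 1.96% of peaks away from starts against 1.77%, and 29.5 per Mb against 50.2; 81.1% were found in the other library against 69%, the median percentile was 76.0 against 61.9 (mean of both libraries), the CTCF share 17.4% against 12%, the median distance from the stop codon 826 against 920 bases, the share of hosts with a promoter peak 80.9% against 86%, and the median GC 53.3% against 52%. An overlap of at least 75 bp gave 46.9 per Mb, 63.3% found again, a percentile of 63.7, a CTCF share of 12.8%, 42.4% nearest to another gene against 41.4%, and 84.2% of hosts with a promoter peak. A distance over 2 kb gave 1.72% of peaks, 49.2 per Mb, a percentile of 63.1, a CTCF share of 12.6%, 43.2% nearest to another gene, 991.5 bases, 88.9% of hosts and 51.3% GC. A distance over 500 bp gave 1.74%, 52.2 per Mb, 62.6, 11.6%, 865 bases and 84.4% of hosts, in the same order of measures. Protein-coding transcripts alone gave 1.72% of peaks and a CTCF share of 12.04%, the whole merged peak with 50 bp added a CTCF share of 12.1%, and the shortest 3′ UTR a distance of 821 bases.

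All peaks of a single library ranged between 1.77% and 1.81% of peaks away from starts, 74.6 and 75.2 per Mb, percentiles of 47.9 and 48.7, CTCF shares of 8.28% and 8.34%, 38.9% and 39.6% nearest to another gene, 88.0% and 88.4% of hosts with a promoter peak, and 50.7% and 51.3% GC. Asking for presence in both libraries therefore gave fewer and stronger peaks. No paired analysis was possible because the 2 libraries form 1 group. Depth is unknown, so whether a peak missing in 1 library reflects depth was not tested.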
